A study of Homo sapiens with 90 samples.

Results

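The clade B serpins were followed through 7 days of EGFR blockade in BxPC-3 cells, a long-established human cell line from a pancreatic adenocarcinoma. The 10 genes were SERPINB1, SERPINB2, SERPINB3, SERPINB4, SERPINB5, SERPINB6, SERPINB7, SERPINB8, SERPINB9 and SERPINB13, and every probe with one of these symbols was taken. There were 12 such probes among the 47292 on the array, and they named 8 of the 10 genes. SERPINB2 and SERPINB6 were not named by a probe in the annotation used, so their levels were not analysed here. A probe was read as background where its mean over all arrays was below the median of all probe means (4.236, rounded to 2 decimals). By that rule 10 probes of 7 genes were above background, and both probes of SERPINB9 were not, at means of 4.16 and 4.10. The member just inside the limit was SERPINB4, with a mean of 4.35.

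Cells given 10 µg/ml of cetuximab, a therapeutic antibody against the EGF receptor (EGFR), were compared with negative controls, and both arms had been deprived of serum before time 0. Each arm was sampled at time 0, after 5, 10 and 30 min, after 1, 2, 4 and 8 h, and daily on days 1 to 7, with 3 arrays for each arm and time, or 45 arrays per arm and 90 in all. The labels do not say whether the 3 arrays of a group came from separate cultures, so p-values measure only the spread between these arrays, which may be technical. Values are normalised log2 intensities of an Illumina HumanHT-12 v4 BeadChip, and differences are cetuximab minus control ± SE unless stated otherwise.

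SERPINB3 was chosen by its difference on days 1 to 7, and the other genes were chosen because they belong to the same family. The differences on the days are therefore given as a description, with no test. Tests were kept to time 0, the first 8 h, the changes over time in each arm, and the slope over the days. The choice did not use time 0 or the first 8 h. Changes and trends in controls draw on the control arrays of days 1 to 7, which also entered the choice. For SERPINB3 those tests are therefore not independent of it. A gene was called when its adjusted p (limma, Benjamini-Hochberg over 12683 genes) was under 0.05.

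Serpins are protease inhibitors that work as a bait: the target protease cuts an exposed loop of the serpin and is then trapped in a covalent complex. The clade B members lack a classical secretion signal and mostly act inside cells, where they guard against proteases that leak from lysosomes or granules. In humans SERPINB3 and SERPINB4 are the squamous cell carcinoma antigens, which inhibit cysteine proteases such as cathepsin L (SERPINB3) and serine proteases such as cathepsin G (SERPINB4). SERPINB5 (maspin) is an epithelial serpin with little or no inhibitory activity, SERPINB13 (headpin) inhibits lysosomal cysteine cathepsins, and SERPINB7 (megsin) is expressed in upper epidermis and renal mesangium. SERPINB1 inhibits neutrophil serine proteases, SERPINB8 inhibits the proprotein convertase furin, and SERPINB9 inhibits granzyme B.

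In the RefSeq gene order the family lies in 2 clusters. On chromosome 18 the order was SERPINB5, SERPINB12, SERPINB13, SERPINB4, SERPINB3, SERPINB11, SERPINB7, SERPINB2 and SERPINB10, followed after 1 other gene by SERPINB8. On chromosome 6 SERPINB1, SERPINB9 and SERPINB6 were adjacent. The promoters of SERPINB3 and SERPINB4 are shown first, because the pair are neighbours and near copies of each other. The windows (RefSeq, GRCh38.p14) run from 250 bases before to 50 bases after the gene's start, at chr18:63661844-63662143 for SERPINB3 and chr18:63644207-63644506 for SERPINB4, both on the minus strand. Of 300 bases 296 were identical (98.7%), and the 4 that differ are in capitals.
SERPINB3: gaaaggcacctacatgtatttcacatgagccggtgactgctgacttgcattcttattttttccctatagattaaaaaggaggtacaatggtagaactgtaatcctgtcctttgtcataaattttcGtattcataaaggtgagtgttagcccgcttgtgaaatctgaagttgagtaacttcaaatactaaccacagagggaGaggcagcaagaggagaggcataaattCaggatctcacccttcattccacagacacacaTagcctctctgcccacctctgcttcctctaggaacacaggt
SERPINB4: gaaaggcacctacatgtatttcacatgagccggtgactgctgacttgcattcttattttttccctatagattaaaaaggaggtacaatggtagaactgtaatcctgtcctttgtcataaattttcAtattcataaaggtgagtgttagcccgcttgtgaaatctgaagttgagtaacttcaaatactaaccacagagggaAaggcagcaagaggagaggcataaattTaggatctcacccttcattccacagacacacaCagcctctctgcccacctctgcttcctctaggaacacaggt
The probe sequences were not used here, and whether the probes tell the transcripts of these near copies apart was not tested.

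The promoters of SERPINB13, SERPINB5 and SERPINB8 are shown because these genes stood below control on every day as SERPINB3 did. Unlike it, they held a match to the AP-1 motif as searched here. AP-1 is the FOS/JUN factor of the growth factor response. The AP-1 motif searched was TGANTCA, which reads the same on both strands, and 7.71% of 35116 promoter windows of the same length held it. This pattern leaves the middle base open, so it is wider than a form with only C or G there, which was not counted apart. Matches are in capitals. SERPINB13 lies at chr18:63587093-63587392, SERPINB5 at chr18:63476708-63477007 and SERPINB8 at chr18:63969831-63970130, all on the plus strand.
SERPINB13: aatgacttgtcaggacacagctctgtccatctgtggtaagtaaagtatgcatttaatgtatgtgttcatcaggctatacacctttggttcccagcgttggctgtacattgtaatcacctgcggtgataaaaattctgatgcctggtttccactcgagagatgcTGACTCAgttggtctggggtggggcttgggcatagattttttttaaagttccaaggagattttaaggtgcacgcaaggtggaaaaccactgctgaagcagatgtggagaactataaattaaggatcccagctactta
SERPINB5: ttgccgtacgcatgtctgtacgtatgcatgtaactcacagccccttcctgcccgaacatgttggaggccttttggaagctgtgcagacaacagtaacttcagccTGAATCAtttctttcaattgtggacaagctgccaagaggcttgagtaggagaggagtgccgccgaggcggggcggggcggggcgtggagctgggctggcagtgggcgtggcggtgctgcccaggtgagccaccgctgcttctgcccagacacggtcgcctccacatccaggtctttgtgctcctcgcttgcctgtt
SERPINB8: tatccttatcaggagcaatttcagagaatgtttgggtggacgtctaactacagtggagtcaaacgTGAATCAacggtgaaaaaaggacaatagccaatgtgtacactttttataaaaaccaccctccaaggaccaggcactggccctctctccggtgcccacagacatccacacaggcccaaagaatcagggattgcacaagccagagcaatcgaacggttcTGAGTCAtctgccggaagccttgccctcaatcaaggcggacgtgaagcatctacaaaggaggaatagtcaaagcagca
SERPINB13 and SERPINB5 had 1 match each and SERPINB8 had 2. SERPINB7 had 2 matches in each of 2 of its 3 windows. The middle base was A in the SERPINB5 match and in 1 SERPINB8 match. It was T in 1 match of each of these SERPINB7 windows. SERPINB3, SERPINB4, SERPINB1 and SERPINB9 had 0 in their windows. A match is a description of these letters and says nothing of binding in BxPC-3 cells.

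SERPINB3 was the member with the lowest late difference. Averaged over days 1 to 7, its difference was -0.71 ± 0.050, which placed it at rank 7 from the lowest among 12683 genes. Over 21 arrays per arm the cetuximab values had a lowest, median and highest of 6.35, 6.68 and 7.44, and the control values of 7.27, 7.42 and 8.03. The ranges of the arms overlapped only through 1 cetuximab array of day 1.

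On day 1 SERPINB3 measured 6.87, 7.06 and 7.44 in cetuximab-treated cells and 7.42, 7.27 and 7.41 in controls, so the arms overlapped. On day 3 it measured 6.35, 6.43 and 6.68 with cetuximab and 7.33, 7.44 and 7.54 in controls. On day 7 it measured 6.95, 6.69 and 6.60 with cetuximab and 7.32, 7.28 and 7.33 in controls. Every cetuximab array lay below every control array on days 2 to 7. The share of all genes without overlap was counted only for all 7 days. Non-overlap at fewer times, here and for other members, is therefore a description without such a share beside it. The daily difference was -0.24, -0.64, -0.95, -0.82, -0.94, -0.81 and -0.57 on days 1 to 7, widest on day 3 and day 5. The control mean lay between 7.31 on day 7 and 7.76 on day 2. The cetuximab mean stood at 7.12 on days 1 and 2 and between 6.49 and 6.74 on days 3 to 7. Both arms were lower on day 3 than on day 2, at 7.43 against 7.76 in controls and 6.49 against 7.12 with cetuximab.

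**Figure D1:**
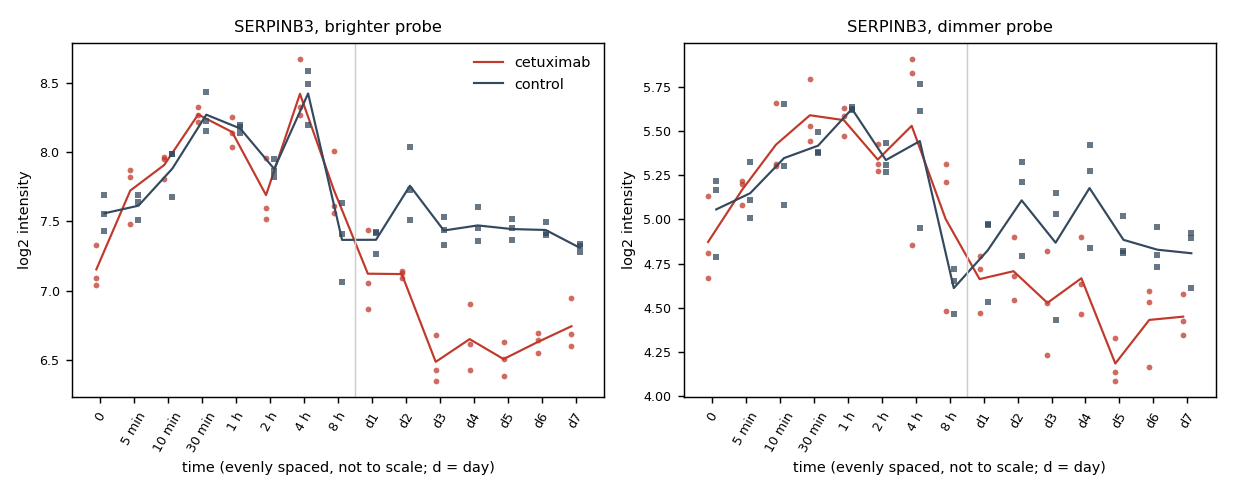
SERPINB3 by arm and time for its brighter probe (left) and its dimmer probe (right). The y axis is log2 intensity, the x axis the 15 times evenly spaced, points are arrays (3 per arm and time) and lines join group means. On the brighter probe both arms peak at 4 h at 8.42 and part on the days, where the cetuximab means lie between 6.49 and 7.12 and the control means between 7.31 and 7.76.

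The dimmer SERPINB3 probe had a late difference of -0.41 ± 0.073. On day 5 it measured 4.33, 4.09 and 4.14 with cetuximab and 4.81, 5.02 and 4.82 in controls. Of these cetuximab values 2 lay below the limit for background. Its arms did not overlap on days 5, 6 and 7. Across the 30 group means both probes followed each other closely (r = 0.94).

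On the brighter probe a gap was also present at time 0. There SERPINB3 measured 7.05, 7.09 and 7.33 in cells labelled cetuximab and 7.69, 7.43 and 7.56 in controls, without overlap. The difference of -0.40 ± 0.131 was not called (adjusted p = 0.084, limma), though it was called with the replicate number as a block (adjusted p = 0.0438 as a term, 0.0378 at random), when arrays were weighted by quality (adjusted p = 0.015) and without replicate 3 of the cetuximab arm at time 0 (-0.49, adjusted p = 0.0488). Set against the gap at time 0, the late difference was -0.30 ± 0.140. Set against the mean of 5 min to 8 h it was -0.75 ± 0.070. The choice between these bases thus moved the value more than 1.5-fold. On the dimmer probe the arms overlapped at time 0, with a difference of -0.18 ± 0.194. Set against that, the late difference of the dimmer probe was -0.23 ± 0.207.

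From 5 min to 8 h the SERPINB3 arms ran together. The mean difference over these 7 times was 0.04 ± 0.050 (95% confidence interval -0.06 to 0.14, adjusted p = 0.72, limma). At 5 min the gene measured 7.87, 7.48 and 7.82 with cetuximab and 7.69, 7.51 and 7.64 in controls, so the order seen at time 0 was gone. At 8 h it measured 7.56, 7.61 and 8.01 with cetuximab and 7.06, 7.41 and 7.63 in controls. That difference of 0.36 ± 0.131 had the opposite sign to the days and was not called (adjusted p = 0.26).

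In order of group means SERPINB3 was highest at 4 h, at 8.42 ± 0.217 with cetuximab and 8.42 ± 0.205 in controls (SD, n = 3 each), and at 30 min, at 8.27 ± 0.055 with cetuximab and 8.27 ± 0.147 in controls. The arrays of these 4 groups overlapped. The 5 lowest groups were the cetuximab groups of days 3, 5, 6, 4 and 7, between 6.49 and 6.74, and the arrays of neighbours in that order overlapped. The lowest control mean, 7.31 on day 7, lay above each cetuximab mean of the days.

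SERPINB4, the near copy of SERPINB3, was close to background throughout. Its group means lay between 3.98 and 4.64 with cetuximab and between 4.10 and 4.77 in controls. On days 4, 5 and 6 every cetuximab array was below every control array, as on day 5 with 4.27, 3.98 and 3.90 against 4.43, 4.57 and 4.31. On days 1, 2 and 7 its difference was above 0, and the late difference was -0.14 ± 0.052. Over the 30 group means its correlation with SERPINB3 was 0.82.

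SERPINB13, which lies next to SERPINB4, had the second lowest late difference of the family, -0.43 ± 0.036, at rank 36 from the lowest among all genes tested. It measured 7.51, 7.52 and 7.57 with cetuximab and 7.72, 7.68 and 7.71 in controls on day 1, and 6.50, 6.53 and 6.39 with cetuximab and 7.02, 7.15 and 7.11 in controls on day 7. Every cetuximab array lay below every control array on all 7 days, which held for 0.166% of all genes and for this member alone. The daily difference was -0.17, -0.26, -0.32, -0.67, -0.44, -0.50 and -0.63 on days 1 to 7.

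The SERPINB13 gap widened over the days. Its slope was -0.23 per day with cetuximab and -0.16 per day in controls, a difference of -0.07 ± 0.018 per day (adjusted p = 0.020, limma). It was the 1 member of 7 called in this test, against 1.35% of all genes. The call was lost without the arrays of replicate 2 (adjusted p = 0.300) and without those of replicate 3 (adjusted p = 0.425). SERPINB3 had a slope difference of -0.05 ± 0.025 per day (adjusted p = 0.49).

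At time 0 the SERPINB13 arms overlapped, with 6.65, 6.45 and 6.63 in the cetuximab arm and 6.67, 6.47 and 6.74 in controls. Its difference over 5 min to 8 h was -0.06 ± 0.036 (95% confidence interval -0.14 to 0.01, adjusted p = 0.30). Set against time 0 the late difference was -0.37 ± 0.101, close to the unadjusted value.

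SERPINB5 was among the bright probes of the array, with a mean of 10.11. Its late difference was -0.20 ± 0.030, and the arms did not overlap on days 2, 3, 4, 5 and 7. On day 4 it measured 9.53, 9.63 and 9.54 with cetuximab and 9.95, 9.90 and 9.96 in controls, the widest of its daily differences (-0.37). At time 0 it measured 10.38, 10.29 and 10.31 with cetuximab and 10.51, 10.44 and 10.46 in controls, again without overlap. Set against this gap the late difference was -0.06 ± 0.085.

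SERPINB8 behaved alike, with a late difference of -0.25 ± 0.058 on its brighter probe and -0.21 ± 0.043 on the other. On the brighter probe every cetuximab array was below every control array on days 3, 4 and 5, and above at 10 min. On the other probe the cetuximab arrays were all below at time 0 and on days 2 and 3. They were all above at 5 and 10 min. On day 3 the brighter probe measured 4.91, 5.18 and 5.44 with cetuximab and 5.83, 5.66 and 5.70 in controls. At time 0 it measured 5.98, 5.97 and 6.42 with cetuximab and 6.48, 6.25 and 6.48 in controls, a difference of -0.28 ± 0.154. Set against time 0 the late difference was 0.03 ± 0.165.

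SERPINB1 and SERPINB7 had mixed signs on the days. SERPINB1, on the chromosome 6 cluster, had a late difference of -0.10 ± 0.037, below control on 5 days and above it on 2. Its cetuximab arrays all lay below its control arrays on days 1, 2, 5 and 6. SERPINB7 had 0.05 ± 0.040, below on 2 days and above on 5. On day 2 SERPINB7 measured 6.32, 6.38 and 6.28 with cetuximab and 5.90, 6.26 and 5.83 in controls, and on day 4 the order was turned, with 5.74, 5.68 and 5.65 against 6.03, 5.90 and 5.94. Both probes of SERPINB9 stayed at background, with group means between 3.84 and 4.44 in the cetuximab arm and between 3.91 and 4.38 in controls.

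Counted over the family, 4 of 7 genes were below control on all 7 days (SERPINB3, SERPINB5, SERPINB8 and SERPINB13), against 4.44% of all genes tested. None of the 7 was above control on all 7 days, against 5.24% of all genes. SERPINB3 entered this count by the way it was chosen, and SERPINB8 entered it with a difference of only -0.0089 ± 0.154 on day 6. SERPINB5 and SERPINB8 were also below control at time 0. Set against time 0 their late differences were -0.06 ± 0.085 and 0.03 ± 0.165. The median late difference of the 7 members was -0.20, and that of all genes was 0.00.

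**Figure D2:**
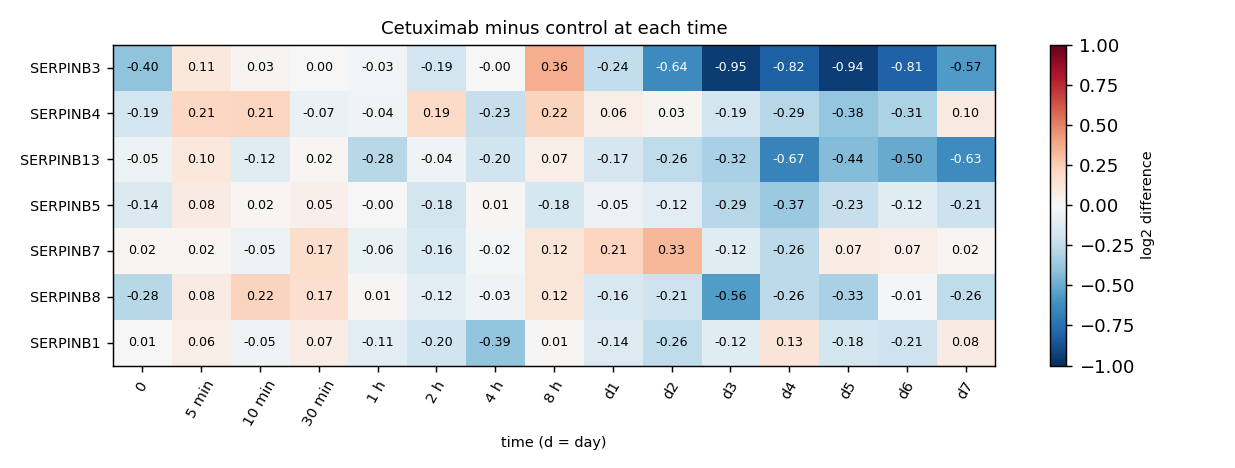
Log2 difference, cetuximab minus control, of group means for the 7 members above background (rows) at the 15 times (columns). Blue is below control and red above. The SERPINB3 and SERPINB13 rows are blue on every day, down to -0.95 and -0.67, while each row holds both signs among the columns from 5 min to 8 h.

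**Figure D3:**
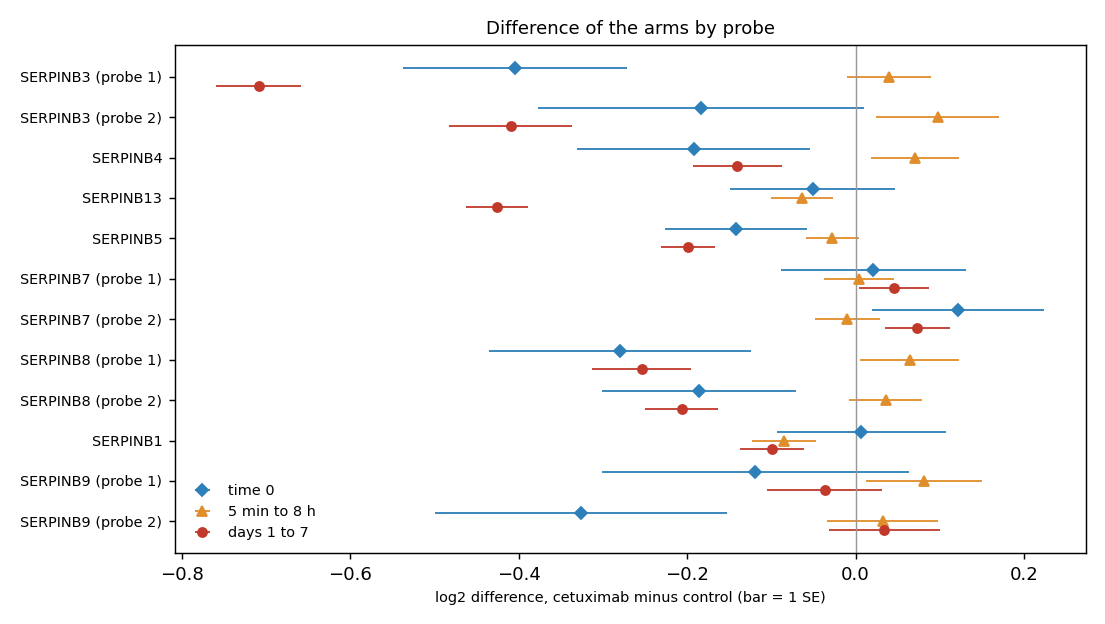
Difference of the arms for each of the 12 probes at time 0 (diamonds), over 5 min to 8 h (triangles) and over days 1 to 7 (circles), in log2 units, with bars of 1 SE from a fit over probes. Probes of a gene lie close together on the days, except for SERPINB3 at -0.71 and -0.41, and the SERPINB9 probes lie near 0 on the days.

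At time 0 none of the 7 members was called, against 2.49% of all genes (limma). At an unadjusted p under 0.05 1 member passed, SERPINB3, which was called with the replicate block. Of 12683 genes, 1836 passed unadjusted. Differences for SERPINB3, SERPINB8, SERPINB4, SERPINB5 and SERPINB13 were below 0 at this time, and those for SERPINB7 and SERPINB1 were 0.02 and 0.01. Over 5 min to 8 h none of the 7 was called, against 10.1% of all genes (limma). Unadjusted 1 passed, SERPINB1 at -0.09 ± 0.037 (adjusted p = 0.14, limma), against 2811 of 12683 genes. The 95% confidence intervals of the early differences all lay between -0.16 and 0.18. In the same window the difference of EGR1, an early target of EGFR signalling, was -0.40 ± 0.052 (adjusted p = 9.33e-08, limma). On the days it stood at -0.99 ± 0.052.

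At single early times 1 member call was made, SERPINB1 at 4 h. It measured 6.69, 6.55 and 6.74 with cetuximab and 7.12, 6.98 and 7.06 in controls, a difference of -0.39 ± 0.097 (adjusted p = 0.019, limma). It was lower in 3 of 3 arrays. The call was lost when the fit used only the arrays compared (adjusted p = 0.354) and without cetuximab replicate 1, cetuximab replicate 2, control replicate 2 or control replicate 4 of 4 h (adjusted p between 0.0508 and 0.141). Of all genes, 1.73% were called at 4 h. At the other early times no member was called. Shares of all genes called were 0.00788% (5 min), 0.00788% (10 min), 0.126% (30 min), 0.315% (1 h), 0.41% (2 h) and 0.505% (8 h). Unadjusted, 5 single differences of members passed at these times. Of 12683 genes, between 787 (5 min) and 1250 (1 h) passed unadjusted at each of them.

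The largest movements of the family were shared by both arms. In controls the mean of days 1 to 7 was set against time 0. SERPINB13 rose by 1.26 ± 0.072 (adjusted p = 6.36e-25) and SERPINB1 by 0.50 ± 0.073 (adjusted p = 2.90e-08), 2 of 7 members against 25.1% of all genes. SERPINB8 fell by 0.95 ± 0.116 (adjusted p = 1.15e-10) and SERPINB5 fell by 0.71 ± 0.060 (adjusted p = 1.47e-16), 2 of 7 members against 21.2% of all genes. SERPINB3 (-0.10 ± 0.099, adjusted p = 0.46), SERPINB4 (-0.02 ± 0.103) and SERPINB7 (0.06 ± 0.081) were not called. Against control arrays of the first 2 h, time 0 included, SERPINB3 stood at -0.43 ± 0.052 and was called (adjusted p = 1.34e-11). On that base SERPINB1 stood at 0.21 ± 0.038 and SERPINB8 at -1.45 ± 0.061, both called in the same direction as against time 0.

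Over the control days 1 member had a rising trend, SERPINB1 by 0.06 ± 0.013 per day, against 26.3% of all genes. SERPINB7 (-0.27 per day), SERPINB13 (-0.16), SERPINB5 (-0.14) and SERPINB8 (-0.12) fell, 4 of 7 against 22.8% of all genes. SERPINB3 had -0.03 ± 0.018 per day (adjusted p = 0.18). The time courses differed in shape. SERPINB13 was highest on day 2, at 8.13, 8.16 and 8.25 with cetuximab and 8.66, 8.38 and 8.26 in controls. SERPINB7 was highest at 8 h, at 6.61, 6.64 and 6.80 with cetuximab and 6.30, 6.67 and 6.71 in controls. SERPINB1 was lowest at 8 h, at 5.74, 6.12 and 6.12 with cetuximab and 6.03, 5.74 and 6.18 in controls.

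**Figure D4:**
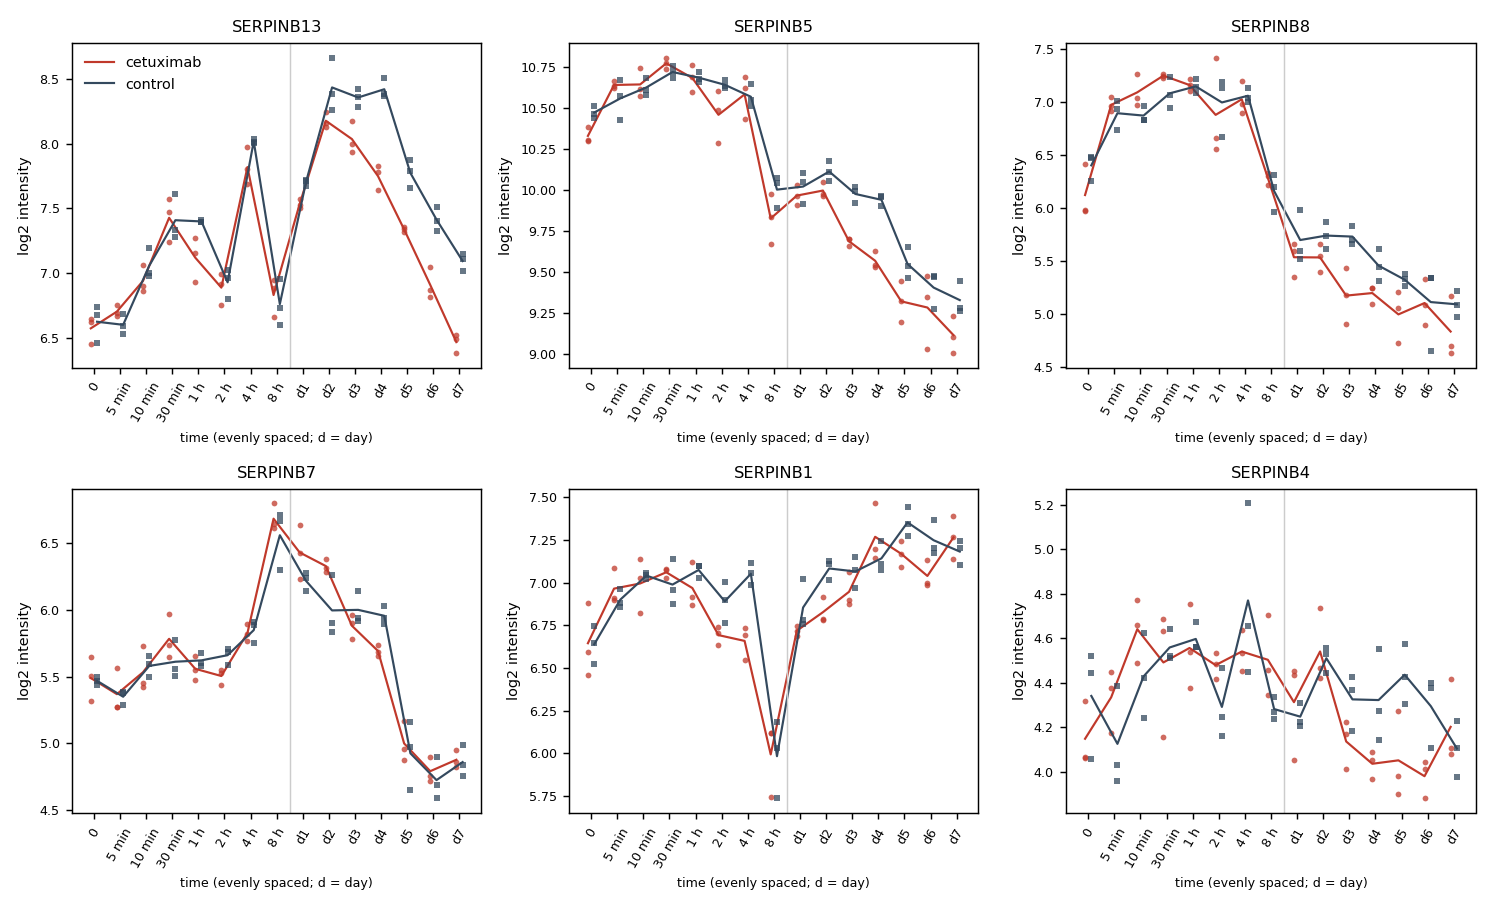
The 6 other members above background by arm and time, with log2 intensity on the y axis (scaled to each gene), the 15 times evenly spaced on the x axis, points for arrays (3 per arm and time) and lines joining group means. SERPINB13 peaks on day 2 in the cetuximab arm at 8.18 and stays below the controls on all 7 days, SERPINB7 peaks at 8 h in both arms and SERPINB1 dips there to 5.99 with cetuximab and 5.98 in controls.

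Both arms also shared 2 fast steps, which were tested after the levels had been seen. From time 0 to 30 min 6 of 7 members rose with cetuximab (10.3% of all genes) and 5 of 7 in controls (9.24%), and no member fell. SERPINB3 rose by 1.12 ± 0.131 with cetuximab (adjusted p = 2.35e-10) and by 0.71 ± 0.131 in controls (adjusted p = 2.18e-05). SERPINB8 rose by 1.13 ± 0.154 with cetuximab and by 0.68 ± 0.154 in controls. Several of the smaller steps lost their call under an alternative. The call of SERPINB7 with cetuximab (0.29 ± 0.107, adjusted p = 0.0354) was lost without replicate 1 or 2, with no filter (adjusted p = 0.0609), with the mean of both probes (0.0512) and with only the arrays compared (0.0983). In controls the call of SERPINB5 (0.25 ± 0.080, adjusted p = 0.0207) was lost without any of replicates 1, 2 and 3 and with only the arrays compared (adjusted p = 0.0675), that of SERPINB1 (0.35 ± 0.097) without replicate 1 or 3, and that of SERPINB8 without replicate 2 (adjusted p = 0.0575). The steps of SERPINB3 and SERPINB8 with cetuximab began from lower means at time 0 than in controls, and at 30 min SERPINB3 was at 8.27 in both arms.

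From 4 h to 8 h 5 of 7 members fell with cetuximab (15.5% of all genes) and 6 of 7 in controls (15.2%). SERPINB13 fell by 0.99 ± 0.095 with cetuximab and fell by 1.26 ± 0.095 in controls. SERPINB3 fell by 0.69 ± 0.131 with cetuximab and fell by 1.06 ± 0.131 in controls. SERPINB7 alone rose, by 0.86 ± 0.107 with cetuximab (17.5% of all genes) and by 0.71 ± 0.107 in controls (17.1%). SERPINB4 was called in controls (-0.49 ± 0.136, adjusted p = 0.00321) and stood at -0.04 ± 0.136 with cetuximab. Without replicate 2, whose control array at 4 h read 5.21, the control step was -0.26 (adjusted p = 0.299), and with only the arrays compared its adjusted p was 0.0653.

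Across the 30 group means, which share arrays, starvation and normalisation, SERPINB5 and SERPINB8 were the most alike pair (r = 0.95). SERPINB3 had r = 0.86 with SERPINB8 and 0.81 with SERPINB5, but 0.03 with SERPINB13. Over the 14 differences of the arms after time 0 the value for SERPINB3 was 0.80 with SERPINB13 and 0.82 with SERPINB8. It was 0.70 with SERPINB5 and SERPINB4, and 0.14 with SERPINB7 and SERPINB1. These differences include days 1 to 7, by which SERPINB3 was chosen. SERPINB3 and SERPINB13 thus had unlike courses in time, while their like differences between arms were not particular to this pair. SERPINB1 and SERPINB7 ran against each other over the group means (r = -0.65). These correlations are descriptions with no test.

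The 5 genes most like SERPINB3 over the 30 group means were RNF4, a SUMO-targeted ubiquitin ligase (r = 0.90), LRRC8B, a subunit of volume-regulated anion channels (0.88), PJA1, a ubiquitin ligase (0.87), FAM83H (0.87) and HPCAL1, a neuronal calcium sensor (0.87). Over the 14 differences, among 3134 genes whose differences had an SD of at least 0.15, they were CLDN8, a tight junction claudin (0.94), CTHRC1, a secreted glycoprotein (0.93), TH, tyrosine hydroxylase (0.91), ECM1, an extracellular matrix protein (0.91) and CLCA2, a regulator of chloride conductance in squamous epithelia (0.90). Late differences were -0.61 ± 0.043 for CLDN8, -0.52 ± 0.039 for ECM1 and -0.35 ± 0.066 for CLCA2. The days by which SERPINB3 was chosen are part of both measures.

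Of 15 serpins outside the family members studied, 6 were tested. At time 0 and over 5 min to 8 h none was called (limma), with 1 at an unadjusted p under 0.05 in each, against 2.49% and 10.1% of all genes called. In controls SERPINH1, the collagen chaperone HSP47, rose by 0.27 ± 0.068, and SERPINE2, an inhibitor of thrombin and urokinase, fell by 0.63 ± 0.058. SERPINE2 was the 1 gene of this list below control on all 7 days, with a late difference of -0.38 ± 0.029. SERPINB10, from the same chromosome 18 cluster, had a late difference of 0.08 ± 0.052.

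Of 14 proteases and related genes that serpins act on, 10 were tested, and none was called over 5 min to 8 h (limma; 2 unadjusted), against 10.1% of all genes. In controls 4 rose (25.1% of all genes) and 4 fell (21.2%). CASP1, the inflammatory caspase, rose by 1.61 ± 0.065 and CTSL, cathepsin L, by 1.11 ± 0.075, while PLAT, tissue plasminogen activator (-1.50 ± 0.099), and PLAUR, the urokinase receptor (-1.11 ± 0.10), fell. CTSV, a cathepsin close to cathepsin L, was the 1 gene of this list above control on all 7 days, at 0.45 ± 0.026 over the days and 0.04 ± 0.026 over 5 min to 8 h. CTSL stood at -0.02 ± 0.037 on the days. At time 0 PLAUR was the 1 of the 10 called, at -0.52 ± 0.133 (adjusted p = 0.016, limma), against 2.49% of all genes.

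Of 21 squamous and barrier genes 17 were tested, and none was called over 5 min to 8 h (limma; 1 unadjusted), against 10.1% of all genes. In controls 8 rose (25.1% of all genes) and 4 fell (21.2%), led by S100A9, a calprotectin subunit (2.06 ± 0.076), and KRT4, a mucosal keratin (1.88 ± 0.084), which rose, and by SPRR3 (-1.30 ± 0.086) and SPRR1A (-1.08 ± 0.067), cornified envelope precursors, which fell. Called at time 0 were 2 of the 17, against 2.49% of all genes (limma). They were SPRR1A and SPRR1B, lower in the cetuximab arm at -0.50 ± 0.089 and -0.66 ± 0.142. The list had both signs at that time, with a median of -0.07. On the days 3 of the 17 were below control every day (4.44% of all genes) and 2 above (5.24%). SPRR1A stood at -0.35 ± 0.034 and SPRR1B at -0.40 ± 0.054, while SPRR2D stood at 0.55 ± 0.053 and the elastase inhibitor PI3 at 0.38 ± 0.046. The squamous genes thus had both signs on the days, with a list median of 0.07.

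Of 12 transcription factors named as candidate regulators of these serpins, 8 were tested. Over 5 min to 8 h 1 was called higher and 1 lower, against 10.1% of all genes called in either direction. The difference of GRHL2, a grainyhead factor of epithelia, was 0.17 ± 0.055 (adjusted p = 0.029, limma). That of STAT3, the factor downstream of interleukin-6 family cytokines, was -0.19 ± 0.040 (adjusted p = 0.0005). On the days the list had differences between -0.08 and 0.06. In controls 3 rose (25.1% of all genes) and 3 fell (21.2%), with EHF, an epithelial ETS factor, at 0.54 ± 0.085, ELF3, another, at -0.56 ± 0.093 and RELA, an NF-kB subunit, at -0.69 ± 0.091. RELA was the 1 of the 8 called at time 0 (-0.44 ± 0.120, adjusted p = 0.029, limma), against 2.49% of all genes. Levels of the factors' transcripts were measured here and their activity was not.

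The arrays bore the marks of ductal epithelium in both arms. All 6 ductal markers were above background, with a mean over the list per array between 9.73 and 10.20 with cetuximab and between 9.69 and 10.09 in controls. The means of 5 fibroblast markers (3.97 to 4.49 with cetuximab, 4.00 to 4.38 in controls), 6 leukocyte markers (4.35 to 4.69 with cetuximab, 4.37 to 4.67 in controls) and 4 acinar markers (3.84 to 4.40 with cetuximab, 3.86 to 4.30 in controls) were lower in every array than those of the ductal list. Above the limit were 4 of the fibroblast, 2 of the leukocyte and 1 of the acinar markers, namely COL1A1 (4.50), COL1A2 (4.35), DCN (4.32) and LUM (4.26), CD14 (5.56) and LYZ (5.22), and AMY2A (4.28), as means over all arrays. The pan-leukocyte marker PTPRC was at 4.05. EGFR itself stood at -0.16 ± 0.041 over 5 min to 8 h (adjusted p = 0.00408) and at -0.02 ± 0.041 on the days. In bulk RNA, fewer cells that express a gene and less RNA per cell cannot be told apart.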

How the data were processed

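Total RNA of BxPC-3 cells was profiled on 90 arrays (Illumina HumanHT-12 v4). The values deposited by the authors were taken as log2 intensities, an inference from their range of 0.26 to 13.76, and the array medians of 4.29 to 4.36 show that arrays had been normalised to each other. The submitters' processing notes list limma without its version. How background was corrected and arrays normalised is not given in the sources used here. Precision is limited by how many arrays there were.

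Of 47292 probes, 30096 had 1 gene symbol and 8 had several, and the others had none in the platform annotation. Symbols were updated through the gene identifiers of RefSeq. The brightest probe of a gene stood for it, and probes with a mean under the median of the probe means (4.236, rounded to 2 decimals) were left out. One model with a mean for each of 30 groups was fitted in limma 3.58.1 (R 4.3.3) with 60 residual degrees of freedom. Late differences of the members carry no test because the late difference of SERPINB3 led to their choice. The members, lists, tests and alternatives were chosen with earlier results of these data known. Named were all members, EGFR and EGR1, the 5 genes most like SERPINB3 by each of 2 measures, and up to 4 genes of a list with the largest change in controls or early, and list genes called at time 0 or lying on 1 side of control on all days, which were chosen after their values were seen, as were PI3, SERPINB10, CTSL on the days and PTPRC. Alternatives were no filter and a stricter one (mean of 5), an average over the probes of each gene, array weights, other forms of the fit, only the arrays compared, a replicate block and the loss of each replicate. Motif counts and figures were made in Python 3.11.15. The procedure was tested on simulated data.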

Additional observations from a re-analysis of the deposited data

Results flagged for a closer look

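The slope of SERPINB13 over days 1 to 7 differed between the arms: -0.23 per day with cetuximab and -0.16 per day in controls, a difference of -0.0708 ± 0.018 per day (adjusted p = 0.020, limma). It kept its sign without each replicate number and lost its call without replicate 2 (-0.07, adjusted p = 0.300) and without replicate 3 (-0.05, adjusted p = 0.425). Groups of 3 arrays are too small for a test of single outlying arrays.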

How the results depend on the processing

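Under the alternatives run the counts of members called in the early window, in controls and by control trend, and those below or above control on all 7 days, stayed within 1.5-fold of their reported values. At time 0 the count of members called was 0 and became 1 (SERPINB3) with array weights, with a replicate block as a term (adjusted p = 0.0438) and with a replicate block at random (adjusted p = 0.0378, block correlation 0.144). Leaving out single replicates gave 0 to 1. The count of 1 call at single early times became 0 with only the arrays compared, and leaving out replicates gave 0 to 1. The count of 1 member with an arm by day trend was 0 to 1 when replicates were left out. The late difference of SERPINB3, -0.71, was -0.30 relative to time 0 and -0.41 on the dimmer probe, both chosen after seeing the data; leaving out each day gave -0.79 to -0.67. The causes were not tested.

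At 30 min minus time 0 the call of SERPINB4 with cetuximab was gained without replicate 1 (0.59, adjusted p = 0.00632). A sign turned in 21 results, none of them called as reported. With array weights these were SERPINB1 (-4.23e-05) and SERPINB7 (-0.031) at time 0, SERPINB7 early (-0.017), SERPINB4 in controls (0.0026) and SERPINB4 at 8 h minus 4 h with cetuximab (0.025). SERPINB7 was -0.0031 early with the mean of its probes and -0.023 in controls with time 0 to 2 h as the base. With replicates left out the values lay between -0.028 and 0.054 for SERPINB7 early, -0.00064 and 0.064 for SERPINB3 early, -0.11 and 0.099 for SERPINB1, -0.057 and 0.11 for SERPINB7 and -0.13 and 0.011 for SERPINB13 at time 0, -0.15 and 0.077 for SERPINB4 in controls, -0.18 and 0.089 for SERPINB4 at 8 h minus 4 h with cetuximab, and -0.024 and 0.032 for the SERPINB8 arm by day trend.

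The labels number the replicates without saying what a number stands for, and number 4 is carried by 1 group in each arm. Deviations of same-numbered arrays of the arms correlated above 0.1 in 26 of 43 pairs (lowest -0.034, median 0.129, highest 0.576). The main fit did not pair the samples by these numbers, although the median correlation was positive. A replicate block was run as an alternative. At time 0 all 3 pairs were over 0.1 (0.134, 0.171 and 0.173), and the replicate block is given beside SERPINB3 there. The replicate block changed no call of a member other than SERPINB3 at time 0. Values near the limit for background, those of SERPINB4, SERPINB9 and the dimmer SERPINB3 probe on the days, are limited by background.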
